A study of Mus musculus with 14 samples.

Results

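The 9 genes described here belong to the T-box family and encode transcription factors that share a DNA-binding domain. Their promoter contacts were followed in mouse cranial neural crest cells (CNCCs). The members were Tbx1, Tbx2, Tbx3, Tbx4, Tbx5, Tbx15, Tbx18, Tbx20 and Tbx22, chosen by name, and their contacts were all the listed pairs in which a captured promoter fragment (bait) held an annotated start site of such a gene. This gave 9 genes of the 27570 with a start site in a bait, and 10 baits of 22171, since Tbx1 had 2. Contacts were measured by promoter capture Hi-C (PCHi-C), in which chromatin is cut with HindIII, ligated in proximity, and enriched for fragments that hold promoters. CHiCAGO scores each pair of fragments against the ligations that distance and background would give, and a pair was listed at a score of 5 or more. A pair that was not listed is given here as 0, which means only that its score was below 5.

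T-box factors bind a shared core motif and act as activators or repressors in the patterning of limbs, heart, pharyngeal arches and craniofacial tissue. Several lie in the genome as linked pairs that descend from an ancestral duplication: Tbx2 next to Tbx4, and Tbx3 next to Tbx5. Tbx2 and Tbx3 are repressors expressed in many tissues, Tbx4 and Tbx5 act in hindlimb, lung, forelimb and heart, Tbx1 is required for pharyngeal arch development, Tbx15 and Tbx18 for skeletal and mesenchymal patterning, Tbx20 for the heart, and Tbx22 for the palate.

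The 14 libraries were 2 replicates of each of 7 conditions. The E10.5 wild-type libraries came from FNP (the frontonasal process), Mx and Md (the upper and lower jaw processes, maxillary and mandibular) and PA2 (the second pharyngeal arch). Another E10.5 condition was PA2 of Hoxa2EGFP/EGFP embryos, in which EGFP replaces Hoxa2 on both alleles. The other libraries, taken at E12.5 or E14.5, were of the wild-type pinna, the outer ear, which derives from PA2. Wild-type embryos carried Wnt1::Cre and a Rosa RFP reporter, so that the sorted RFP-positive cells were those with a history of Wnt1-driven Cre, while knockout cells were sorted by GFP from the Hoxa2 locus, so genotype and sort cannot be told apart. All mice were of a mixed C57Bl/6J and CD1 background, with cells pooled over embryos, and the E14.5 tissue was dissociated with papain where the other stages were treated with trypsin, so at E14.5 stage and dissociation cannot be told apart. Scores alone cannot show whether these cells hold the markers of neural crest.

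The libraries listed between 119370 and 499756 pairs, of which 171 to 305 had a T-box bait. Md replicate 1 and E12.5 pinna replicate 2 stood apart, with 46.5% and 62.7% of their pairs joining different chromosomes, against 2.64% to 5.61% in the other 12. The 2 knockout libraries listed the fewest pairs, 119370 and 128042. No read counts were used here, so the depth behind a score is unknown. In the knockout, the bait of Hoxa2 itself had a summed score of 558 and 518, against 668 and 843 in wild-type PA2, which does not check the genotype.

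The 4 sequences that follow come from fragments in the contacts described below (mouse GRCm38, from RefSeq, 5' to 3'), with CpG dinucleotides in capitals. A contact is scored for a whole fragment, not for a stretch within it. The first pair are the 250 bases before the start sites of Tbx18 (chr9:87731261-87731510, minus strand) and Tbx20 (chr9:24774304-24774553, minus strand), whose baits contacted each other. The next is a HindIII fragment in an intron of Lhx5 with the sites at its ends (chr5:120435891-120436148, plus strand), contacted by Tbx5. The last is the middle 300 bases of a fragment in an intron of Bcas3 contacted by Tbx2 (chr11:85491897-85492196, plus strand).
Tbx18 promoter: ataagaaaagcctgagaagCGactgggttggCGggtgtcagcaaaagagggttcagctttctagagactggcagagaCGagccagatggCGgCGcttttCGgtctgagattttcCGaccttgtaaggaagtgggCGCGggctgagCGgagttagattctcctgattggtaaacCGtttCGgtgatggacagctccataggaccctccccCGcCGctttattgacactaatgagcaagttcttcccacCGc
Tbx20 promoter: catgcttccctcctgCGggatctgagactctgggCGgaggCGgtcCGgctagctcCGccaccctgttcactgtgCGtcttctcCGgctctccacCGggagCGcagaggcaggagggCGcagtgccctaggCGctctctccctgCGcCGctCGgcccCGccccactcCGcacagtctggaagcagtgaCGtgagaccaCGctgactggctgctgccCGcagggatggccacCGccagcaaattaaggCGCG
Tbx5-contacted fragment at Lhx5: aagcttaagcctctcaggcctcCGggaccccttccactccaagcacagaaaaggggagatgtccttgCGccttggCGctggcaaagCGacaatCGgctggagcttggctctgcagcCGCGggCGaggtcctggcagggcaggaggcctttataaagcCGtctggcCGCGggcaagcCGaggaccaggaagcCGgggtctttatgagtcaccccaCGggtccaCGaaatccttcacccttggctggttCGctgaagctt
Tbx2-contacted fragment: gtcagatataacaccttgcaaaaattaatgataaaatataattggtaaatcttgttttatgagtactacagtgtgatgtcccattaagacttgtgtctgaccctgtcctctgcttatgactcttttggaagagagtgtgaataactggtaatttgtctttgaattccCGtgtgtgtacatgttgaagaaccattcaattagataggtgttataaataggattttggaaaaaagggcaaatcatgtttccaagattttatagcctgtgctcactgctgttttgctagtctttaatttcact

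The Tbx18 stretch held 15 CpG and the Tbx20 stretch 22, more than 72.7% and 85.2% of all RefSeq promoter stretches of this length, whose median was 6. The Lhx5 fragment held 16 in 258 bases, while the Tbx2-contacted stretch held 1 in 300 bases. The T-box core motif AGGTGTGA and the Pbx-Hox motif TGATTNAT were looked for on both strands. They were in 1.28% and 3.22% of 32851 promoters, each of 250 bases before and 50 after a start, and in 0 of the 8 promoters of the 5 members that the table held (Tbx1, Tbx4, Tbx18, Tbx20 and Tbx22). Neither motif was in these 2 contacted fragments. A missing match says only that these letters are not in the window.

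The members differed widely in how many contacts they made. Tbx2 listed a median of 62 pairs on its own chromosome (lowest library 44, highest 80), a median higher than that of 99.6% of all baits, whose middle value was 4. Tbx18 followed with 45 (30 to 60) and Tbx3 with 30.5 (20 to 41). The Tbx1 baits had 26 (16 to 33) and 21 (13 to 31), Tbx15 had 20 (14 to 28), Tbx20 had 13.5 (4 to 24) and Tbx5 had 11.5 (0 to 15). Tbx4, with 4.5 (1 to 8), and Tbx22, with 2 (0 to 14), were near or below the middle bait. Neighbours in this order overlapped in their ranges, while the lowest library of Tbx2, with 44, was above the highest of Tbx3, with 41.

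In all, the 10 baits made 762 different pairs within chromosomes, of which 50 were listed in all 14 libraries (6.56%, against 1.85% over all baits) and 303 in 1 library (39.8% against 63.4%). Of the 50, 25 were of Tbx2. Of the 459 T-box pairs listed in 2 or more libraries, 86.9% lay within 2 Mb (92.1% over all baits), at a median distance of 408 kb (368 kb over all baits). A further 151 T-box pairs joined different chromosomes, of which 0 were listed in more than 1 library and 131 were in Md replicate 1 or E12.5 pinna replicate 2.

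**Figure D1:**
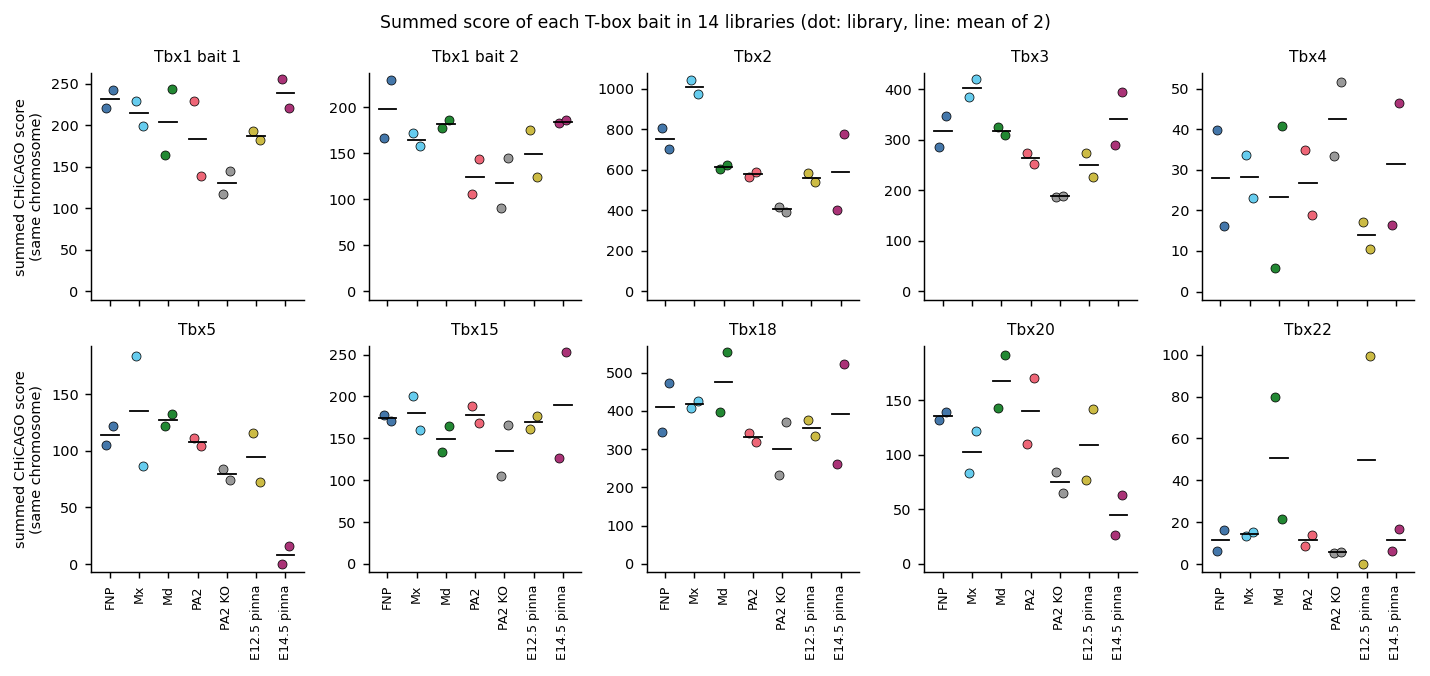
Summed CHiCAGO score over the listed same-chromosome pairs of each T-box bait (vertical axis, score units, a separate scale for each bait) in the 7 conditions (horizontal axis), with a dot for each of the 14 libraries and a line for the mean of the 2. Tbx5 was at 0 and 16.2 in the E14.5 pinna libraries, and Tbx2 ranged from 393 in the knockout to 1044 in Mx.

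Tbx3 and Tbx5 lie 162 kb apart on chromosome 5, head to tail, and their contacts, pooled over the libraries, lay mostly on opposite sides. Tbx3 contacted the gene desert upstream of it, with 59 of its 63 pairs listed in 2 or more libraries lying upstream and 59 lying between protein-coding genes. Tbx5 made 17 of 27 such pairs downstream, 7 of them in a region at Lhx5, a LIM homeobox gene known for its role in forebrain development. In the E12.5 pinna libraries, however, Tbx5 listed 10 and 6 pairs upstream against 5 and 4 downstream. Knockout replicate 2 had 5 upstream and 4 downstream. The promoters also met: the Tbx3 and Tbx5 baits were listed with each other in 9 of 14 libraries.

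The strongest contacts of Tbx3 were in a region 904 to 751 kb upstream (chr5:118766673-118919347, 25 fragments), present in all 14 libraries. Its summed score was 183 to 234 (median 206) in the 6 FNP, Mx and Md libraries, 205 and 172 in PA2, 220 and 180 in the E12.5 pinna, 246 and 318 in the E14.5 pinna, and 128 and 128 in the knockout. The knockout libraries were the lowest of all and the E14.5 libraries the highest. Within this region the fragment chr5:118867961-118879396 scored 28.1 and 24.1 in PA2 and 6.36 and 9.51 in the knockout, below the 24.1 to 39.3 of every wild-type library. This pair was lower in the knockout (difference -1.2 on the asinh scale, SE 0.153, limma adjusted p = 0.00161), and it passed the test in 24 of 24 alternatives.

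Another Tbx3 region was high in the maxillary and mandibular processes. It lay 536 to 518 kb upstream and held 7 fragments. Its summed score was 79.4 and 96.4 in Mx, 52.8 and 60.9 in Md and 16.09 and 28.03 in FNP. In PA2 it was 5.82 and 7.06, in the knockout 13.7 and 5.41, in the E12.5 pinna 0 and 5.47, and in the E14.5 pinna 0 and 5.28. Every FNP, Mx and Md library was thus above all 8 libraries of PA2 and its derivatives.

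The contact between the Tbx3 and Tbx5 promoters followed another order. Its score was 14.51 and 11.59 in PA2, 13.1 and 10.8 in the knockout, and 21.0 and 13.0 in the E12.5 pinna. In FNP it was 5.86 and 5.62, in Md 0 and 5.14, in Mx 0 and 0, and in the E14.5 pinna 0 and 0. All 6 libraries of E10.5 PA2, its knockout and the E12.5 pinna were above the other 8. From E12.5 to E14.5 the score was lower by 3.50 on the asinh scale (difference -3.50, SE 0.671, limma adjusted p = 0.046), a result that passed in only 7 of 24 alternatives, in which the adjusted p ran from 0.00737 to 0.22.

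The Tbx3 bait also reached the Lhx5 start site, 763 kb downstream and beyond Tbx5 (chr5:120431324-120435891). That score was 19.1 and 18.5 in PA2, 9.99 and 9.59 in the knockout and 9.32 and 11.1 in the E12.5 pinna. It was 7.32 and 6.94 in Md, 5.50 and 0 in FNP, and 0 in all Mx and E14.5 libraries.

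As a measure of the pair together, the mean score over 87 positions was taken, namely the fragments between the genes or over the partner gene, from either bait. The contact between the promoters, given above, was counted from each bait, so this measure partly repeats it. The mean score was 0.451 and 0.397 in PA2, 0.821 and 0.445 in the E12.5 pinna, and 0 and 0 in the E14.5 pinna, against 0.0612 to 0.212 in FNP, Mx and Md. The means were 0.352 ± 0.313 (SD, n = 6) and 0.122 ± 0.0683 (SD, n = 6), a difference of 0.231 that did not pass a two-sided exact permutation test (p = 0.0952). Without E14.5 pinna replicate 1, and equally without replicate 2, the difference was 0.301 with an exact permutation p of 0.0368, and without E12.5 pinna replicate 1 it was 0.137. With the knockout libraries added to PA2 it was 0.252 (exact permutation p = 0.037).

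Tbx5 contacted Lhx5 in the E10.5 populations and was near 0 there later. The region 584 to 617 kb downstream of Tbx5 (chr5:120416344-120449188, 7 fragments over and beside Lhx5) had summed scores of 68.3 and 76.7 in FNP, 127 and 69.4 in Mx, 60.4 and 78.6 in Md, 61.6 and 44.2 in PA2 and 49.2 and 42.5 in the knockout. In the E12.5 pinna it was 8.05 and 11.5, and in the E14.5 pinna 0 and 0. All 10 libraries from E10.5 were above all 4 pinna libraries.

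The Lhx5 start fragment gave the clearest single pair of Tbx5. Its score was 21.8 and 15.6 in FNP, 28.7 and 19.6 in Mx, 20.1 and 18.7 in Md, 13.9 and 10.6 in PA2 and 15.3 and 11.5 in the knockout, but only 0 and 5.52 in the E12.5 pinna, with 0 in both E14.5 libraries. Against the 8 wild-type E10.5 libraries, the 4 pinna libraries were lower by 2.98 on the asinh scale (difference -2.98, SE 0.399, limma adjusted p = 0.000965), which passed in 25 of 25 alternatives. The fragment in the Lhx5 intron next to it, whose sequence is shown, was listed in 9 of 10 E10.5 libraries, at up to 18.8, and in 0 of 4 pinna libraries.

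Less frequent Tbx5 contacts reached other genes on the chromosome. Hrk, a regulator of cell death 1661 kb upstream, was listed in 4 libraries (Mx replicate 1 at 16.4, both Md libraries and a knockout library at 5.28 to 5.48). The fragment with the start site of Uncx, a homeobox gene 19710 kb away, was listed in 3 libraries (FNP replicate 2 at 14.03, Mx replicate 1 at 9.79 and PA2 replicate 1 at 8.57), and another fragment in Uncx, with no start site, in 4 others at 5.00 to 11.7. Summed over all its pairs, Tbx5 scored 72.9 to 184 in the 12 libraries up to E12.5 and 0 and 16.2 at E14.5. Both E14.5 libraries were thus below all the others.

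**Figure D2:**
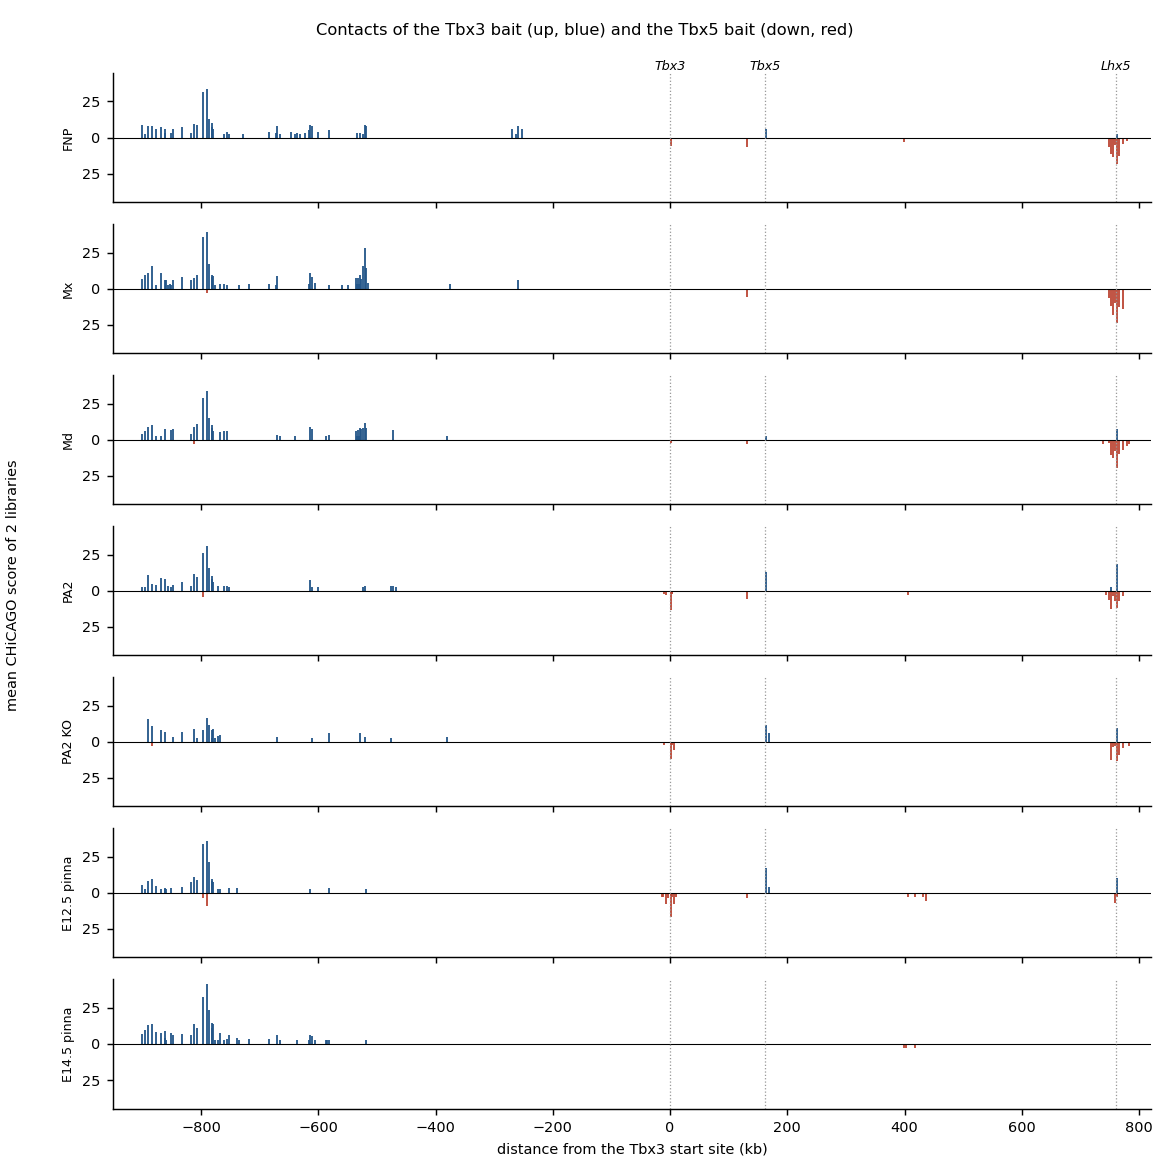
Mean CHiCAGO score of the 2 libraries of each condition (vertical axis, score units) for contacts of the Tbx3 bait (blue, upward) and of the Tbx5 bait (red, downward), by distance from the Tbx3 start site in kb (horizontal axis), with a row for each of the 7 conditions and dotted lines at the start sites of Tbx3, Tbx5 and Lhx5. The Tbx3 region near -520 kb was seen in Mx, Md and FNP, while the Tbx5 contacts at Lhx5 were seen at E10.5 and were at 0 in both E14.5 libraries.

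Tbx2 and Tbx4 lie 53.9 kb apart on chromosome 11. Their promoters were not listed with each other in any of the 14 libraries, and neither bait was listed with a fragment between the genes or over the other gene (41 positions), so that this measure gave no test. The baits shared 15 distant fragments in at least 1 library and 7 in 2 or more libraries for each bait. Of the 14 fragments that Tbx4 contacted in 2 or more libraries, 5 lay in Bcas3, the gene that holds most Tbx2 contacts.

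Most Tbx2 contacts lay in a stretch 472 to 112 kb upstream (chr11:85360352-85720195, 73 fragments in Bcas3, a gene linked to cell migration). Of its 88 pairs listed in 2 or more libraries, 84 lay in Bcas3 and 86 lay upstream. The summed score of the stretch was 769 and 682 in FNP, 972 and 920 in Mx, 568 and 612 in Md, and 543 and 557 in PA2. It was 562 and 533 in the E12.5 pinna, 401 and 744 in the E14.5 pinna, and 395 and 374 in the knockout. The Mx libraries were the highest and the knockout libraries the lowest, while the E14.5 replicates were far apart from each other. The strongest fragment, chr11:85382312-85389232 in a Bcas3 intron, scored 17.8 to 41.2 and was listed in all 14 libraries. A smaller region lay within Tbx2 itself, 4.08 to 9.07 kb downstream of its start (chr11:85836633-85841623, 2 fragments). Its summed score was 11.59 to 20.87 in the 6 FNP, Mx and Md libraries, 5.91 and 6.10 in PA2, 6.18 and 0 in the E12.5 pinna, 0 and 11.2 in the E14.5 pinna, and 0 in both knockout libraries.

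In the knockout, several Tbx2 fragments were not listed. Of the 34 Tbx2 pairs listed in all 12 wild-type libraries, 4 were listed in neither knockout library (11.8%), against 8.97% of the 19624 such pairs over all baits, and the 34 such pairs of the other T-box baits included 0. The Tbx2 share was thus near that of all baits. The fragment whose sequence is shown (chr11:85491708-85492385) scored 7.44 and 9.87 in PA2, 5.15 to 19.3 over the wild-type libraries, and 0 and 0 in the knockout (difference -2.84 on the asinh scale, SE 0.324, limma adjusted p = 0.000955). The fragment chr11:85428861-85430891 scored 9.74 and 6.88 in PA2 and 0 and 0 in the knockout (difference -2.80, SE 0.321, adjusted p = 0.00099). Each passed in 22 of 24 alternatives.

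Tbx4 made few contacts, 14 in 2 or more libraries. Its most recurrent region, 1374 to 1362 kb upstream (chr11:84512184-84524704, 3 fragments), held the start sites of Aatf and Lhx1, the latter a LIM homeobox gene of kidney and head development. The summed score there was 18.0 and 16.1 in FNP, 13.7 and 10.9 in Mx, 0 and 6.93 in Md, 5.08 and 13.3 in PA2 and 15.8 and 18.05 in the knockout. In all 4 pinna libraries it was 0. Of the 10 libraries from E10.5, 9 listed it. With 4 tested pairs, the bait as a whole did not pass any test.

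**Figure D3:**
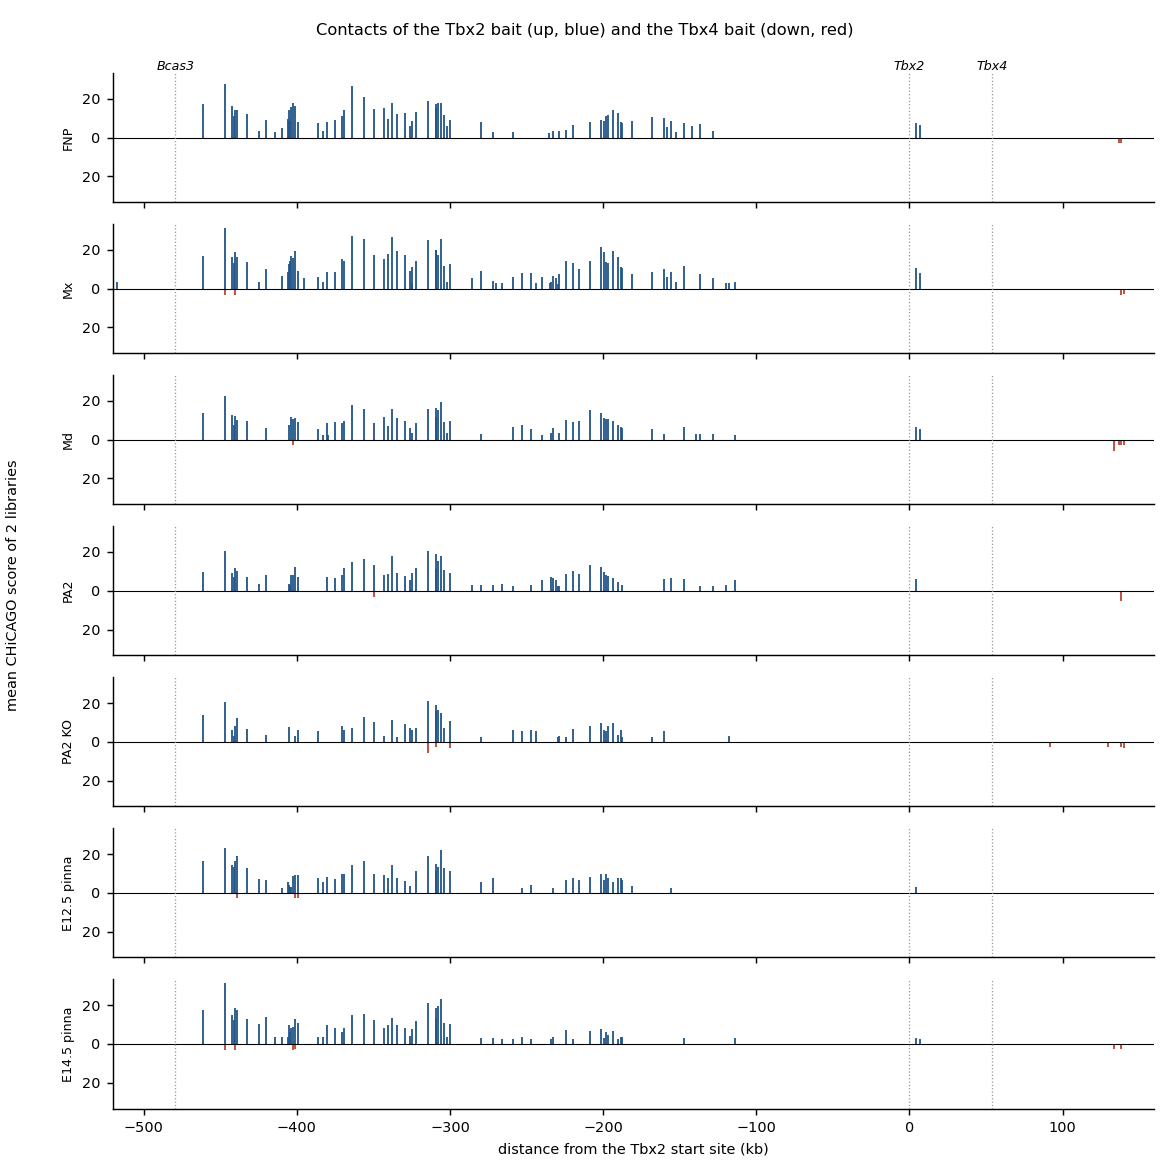
Mean CHiCAGO score of the 2 libraries of each condition (vertical axis, score units) for contacts of the Tbx2 bait (blue, upward) and of the Tbx4 bait (red, downward), by distance from the Tbx2 start site in kb (horizontal axis), with a row for each of the 7 conditions and dotted lines at the start sites of Bcas3, Tbx2 and Tbx4. The Bcas3 stretch, 472 to 112 kb upstream, was contacted by Tbx2 in all conditions, and the Tbx2 and Tbx4 promoters were not listed with each other.

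Tbx18 contacted a region that holds the Zic1 and Zic4 promoters at E10.5 over a distance of 3617 to 3680 kb (chr9:91348538-91411598, 20 fragments). Zic1 and Zic4 are neighbouring zinc-finger genes of neural and neural crest development. The summed score was 150 and 109 in FNP, 170 and 218 in Mx, 157 and 244 in Md, and 132 and 91.5 in PA2. It was 68.6 and 108 in the knockout, 64.5 and 31.2 in the E12.5 pinna, and 0 and 5.79 in the E14.5 pinna. All 10 libraries from E10.5 were above the 4 pinna libraries, and both E12.5 libraries were above both E14.5 libraries. Of these fragments, 3 passed the comparison of pinna with wild-type E10.5 libraries, with differences of -2.87 (SE 0.592, adjusted p = 0.0179), -2.36 (SE 0.463, adjusted p = 0.0121) and -2.35 (SE 0.472, adjusted p = 0.0149) in limma. None of the 3 held a start site. The first was listed in no pinna library and so passed the filter only through E10.5 libraries. The fragment with the highest mean score, chr9:91353295-91363374, held start sites of both genes and did not pass. It scored 5.53 to 29.4 in the wild-type E10.5 libraries, 13.97 and 10.25 at E12.5, and 0 in both E14.5 libraries.

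Nearer to Tbx18 the regions differed among themselves. The region 512 to 444 kb upstream (chr9:88174913-88243181, 14 fragments between genes) had summed scores of 32.8 to 84.4 (median 52.8) in the 8 wild-type E10.5 libraries and 53.8 and 64.0 in the knockout. It had 83.6 and 71.8 in the E12.5 pinna and 87.1 and 166 in the E14.5 pinna. The pinna libraries were higher, but 1 Md library overlapped them. In this region 2 fragments passed the comparison, among them chr9:88182315-88182828, which scored 9.11 and 12.7 at E12.5, 10.0 and 15.7 at E14.5, and 5.68 in 1 of 8 wild-type E10.5 libraries (difference 2.84 on the asinh scale, SE 0.583, limma adjusted p = 0.0169). Such a pair passed the filter mainly through the pinna libraries. The region 347 to 316 kb upstream had 20.7 to 47.6 in the wild-type E10.5 libraries and 44.6 to 86.1 in the pinna. Its knockout libraries had 14.3 and 16.4. The region 331 to 421 kb downstream had 18.6 to 61.1 in the wild-type E10.5 libraries. It had 75.1 and 67.3 in the E12.5 pinna, and 25.2 and 71.55 in the E14.5 pinna. Further near regions were not higher: the one 693 to 718 kb downstream, over Ripply2 and Cyb5r4, had 19.72 to 48.18 in the wild-type E10.5 libraries, 21.69 and 10.46 in the E12.5 pinna and 5.21 and 7.84 in the E14.5 pinna. The one 286 to 302 kb downstream had 13.59 to 25.1 in the wild-type E10.5 libraries and 8.53 to 24.9 in the pinna.

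Downstream, Tbx18 was listed with the start site of Ripply2, a corepressor that acts with T-box factors in somites, in 10 of 14 libraries (717 kb away). That score was up to 12.8, in the knockout, and 0 in both E12.5 pinna libraries. The start site of the next gene, Cyb5r4, was listed in 11 libraries at 5.35 to 13.0. Further Tbx18 contacts reached the start sites of Rasgrf1, in 8 libraries at up to 15.9, and Foxl2, in 3 libraries at up to 9.93.

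Tbx18 and Tbx20 lie on the same chromosome, 62960 kb apart, and their baits were listed with each other. The score was 7.62 and 8.76 in PA2, 0 and 26.1 in the E12.5 pinna, and 6.07 and 5.88 in the E14.5 pinna. It was 0 in all 6 FNP, Mx and Md libraries and in both knockout libraries. The highest value was in E12.5 pinna replicate 2, 1 of the 2 libraries with many pairs between chromosomes, whose part in it was not tested. Without that library the contact was listed in 4 of the other 5 wild-type PA2 and pinna libraries. Apart from Tbx3 with Tbx5, no other pair of T-box baits was listed together in any of the 14 libraries.

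Tbx20 had its main contacts 268 to 247 kb upstream (chr9:25020798-25042154, 5 fragments between genes). Their summed score was 21.6 to 38.6 (median 33.4) in the wild-type E10.5 libraries and 34.8 and 27.2 in the knockout. It was 10.7 and 13.95 in the E12.5 pinna and 0 and 12.52 in the E14.5 pinna, so that the pinna libraries were below all 10 from E10.5. The fragment chr9:25037747-25038913 was listed in all 8 wild-type E10.5 libraries at 5.19 to 9.14 and in 0 of 4 pinna libraries (difference -2.54 on the asinh scale, SE 0.364, limma adjusted p = 0.00144, passed in 23 of 24 alternatives). This pair thus passed the filter only through E10.5 libraries.

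Of the recurrent pairs of Tbx18, 27 of 105 lay beyond 2 Mb. Tbx20 had the largest share beyond that distance, with 24 of its 39 recurrent pairs. These included the start sites of the homeobox genes Bsx (5 libraries, 7.21 to 12.3), Barx2 (3 libraries, 6.40 to 8.97) and Onecut1 (2 libraries, 6.70 and 6.89). Robo3, an axon guidance receptor, was listed in 3 libraries at 11.9 to 17.2, and Foxb1, a forkhead gene also contacted by Tbx18, in 2 libraries. The Bsx contact was in both Mx libraries, 1 PA2 library and both knockout libraries, and in no pinna library. Fragments at Zic4 were listed with Tbx20 as well as with Tbx18, at 5.02 to 18.3 in 7 libraries for the region chr9:91375353-91388478.

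**Figure D4:**
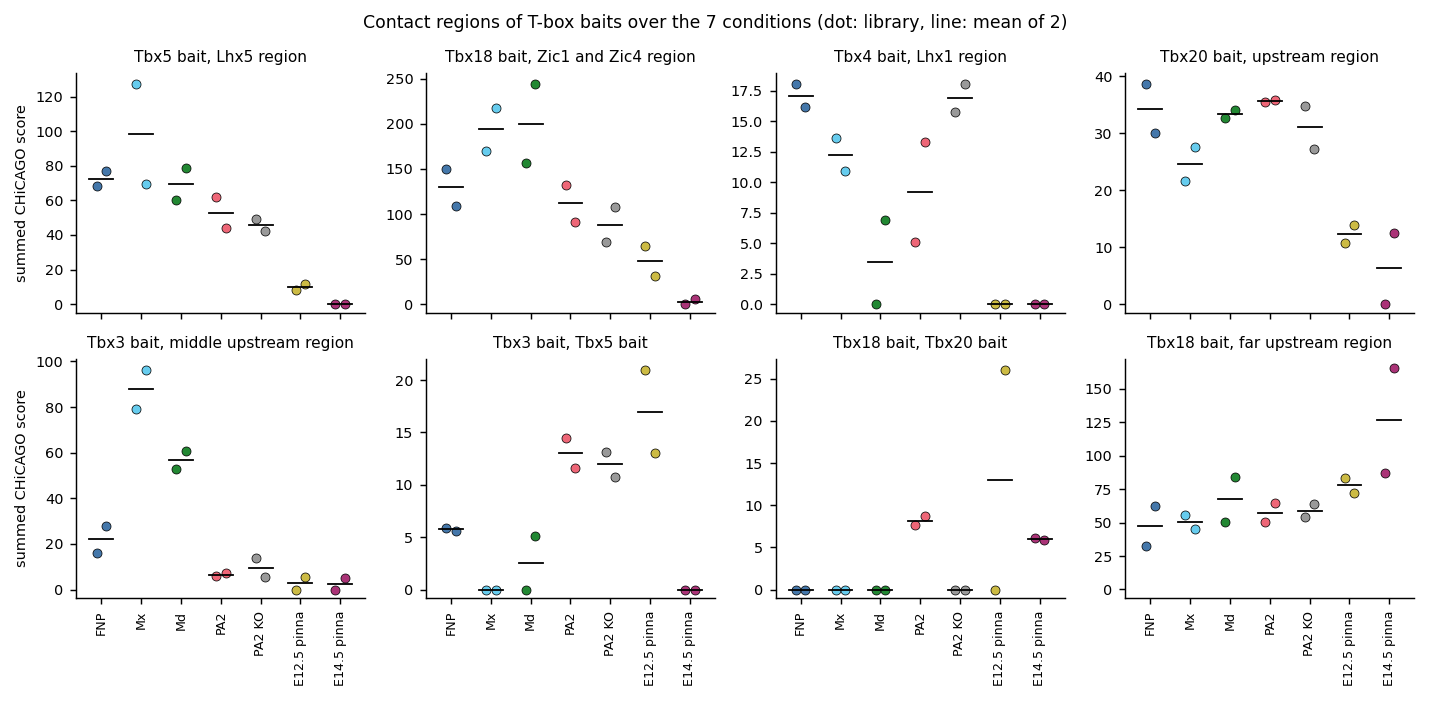
Summed CHiCAGO score (vertical axis, score units, a separate scale in each panel) of 8 contact regions of T-box baits in the 7 conditions (horizontal axis), with a dot for each library and a line for the mean of 2. The Tbx5 contacts at Lhx5 and the Tbx18 contacts at Zic1 and Zic4 were higher in all 10 libraries from E10.5 than in the 4 pinna libraries, and the contact of Tbx18 with Tbx20 was 0 in all 6 FNP, Mx and Md libraries.

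Tbx15 contacted Spag17, a gene of ciliary movement, across an interval 676 to 740 kb downstream (chr3:99916144-99980164, 13 fragments). The summed score was 101 to 124 in the 8 wild-type E10.5 libraries (median 114), 64.2 and 98.2 in the knockout, 84.5 and 95.4 in the E12.5 pinna and 71.4 and 132 in the E14.5 pinna. Within it, chr3:99935876-99947279 over an exon of Spag17 was listed in all 14 libraries at 11.0 to 19.7. An upstream region, 345 to 322 kb away (chr3:98895144-98918817, 6 fragments between genes), differed more, with 41.6 and 43.1 in the E14.5 pinna and 34.7 and 26.9 in the E12.5 pinna. Its wild-type E10.5 libraries were at 5.27 to 26.1 (median 16.4), all below the pinna libraries, and the knockout was at 15.4 and 19.1. Rare contacts of Tbx15 reached start sites of Neurog2 (3 libraries, 5.35 to 10.51), Nhlh2 (2 libraries, 7.33 and 9.19) and Lhx8 (2 libraries, 5.54 and 5.72).

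The Tbx1 baits contacted their gene-rich neighbourhood downstream, where genes such as Gnb1l, Txnrd2, Arvcf and Tango2 lie. The region 6.25 to 261 kb downstream of the first bait (chr16:18325809-18580715, 28 fragments) had summed scores of 133 to 187 (median 172) in the wild-type E10.5 libraries, 178 and 141 in the E12.5 pinna and 204 and 173 in the E14.5 pinna. The knockout libraries, at 99.9 and 113, were below all 12 others. The strongest fragment, chr16:18456364-18459470 over an exon of Txnrd2, scored 7.57 to 19.2 in all 14 libraries. The pair with the Tango2 start fragment chr16:18334417-18340370 scored 5.28 to 10.4 in the 10 libraries from E10.5, 0 in both E12.5 libraries, and 6.12 and 6.28 in those from E14.5. The adjacent fragment chr16:18325809-18334416 also held a Tango2 start site and was listed with the first bait at E12.5. Its score was 7.72 and 5.42 in PA2, 5.03 and 6.78 in the E12.5 pinna, and 9.85 and 5.2 in the E14.5 pinna. The contacts of the second Tbx1 bait over Tango2 and Arvcf (chr16:18304556-18380998, 8 fragments) had summed scores of 23.1 to 40.5 in the 6 FNP, Mx and Md libraries, 13.5 and 15.86 in PA2, 13.7 and 24.6 in the knockout, 9.03 and 5.17 in the E12.5 pinna, and 22.6 and 10.8 in that from E14.5. The pair of the first bait with chr16:18334417-18340370, 1 of these Tango2 start fragments, passed the test both from PA2 to E12.5 (difference -2.54, SE 0.328, limma adjusted p = 0.0104) and from E12.5 to E14.5 (difference 2.52, SE 0.328, adjusted p = 0.0073).

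Tbx22, on chromosome X, had almost no recurrent contacts. Of its 40 different pairs within the chromosome, 37 were in 1 library, and Md replicate 1 and E12.5 pinna replicate 2 listed 10 and 14 pairs where the other 12 libraries listed 0 to 3. The contact with the start site of Brwd3, 1169 kb downstream, was listed in 3 libraries, E12.5 pinna replicate 2 at 5.59 and the E14.5 pinna at 6.37 and 5.84. None of the Tbx22 pairs was listed in the 4 libraries needed for a test.

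**Figure D5:**
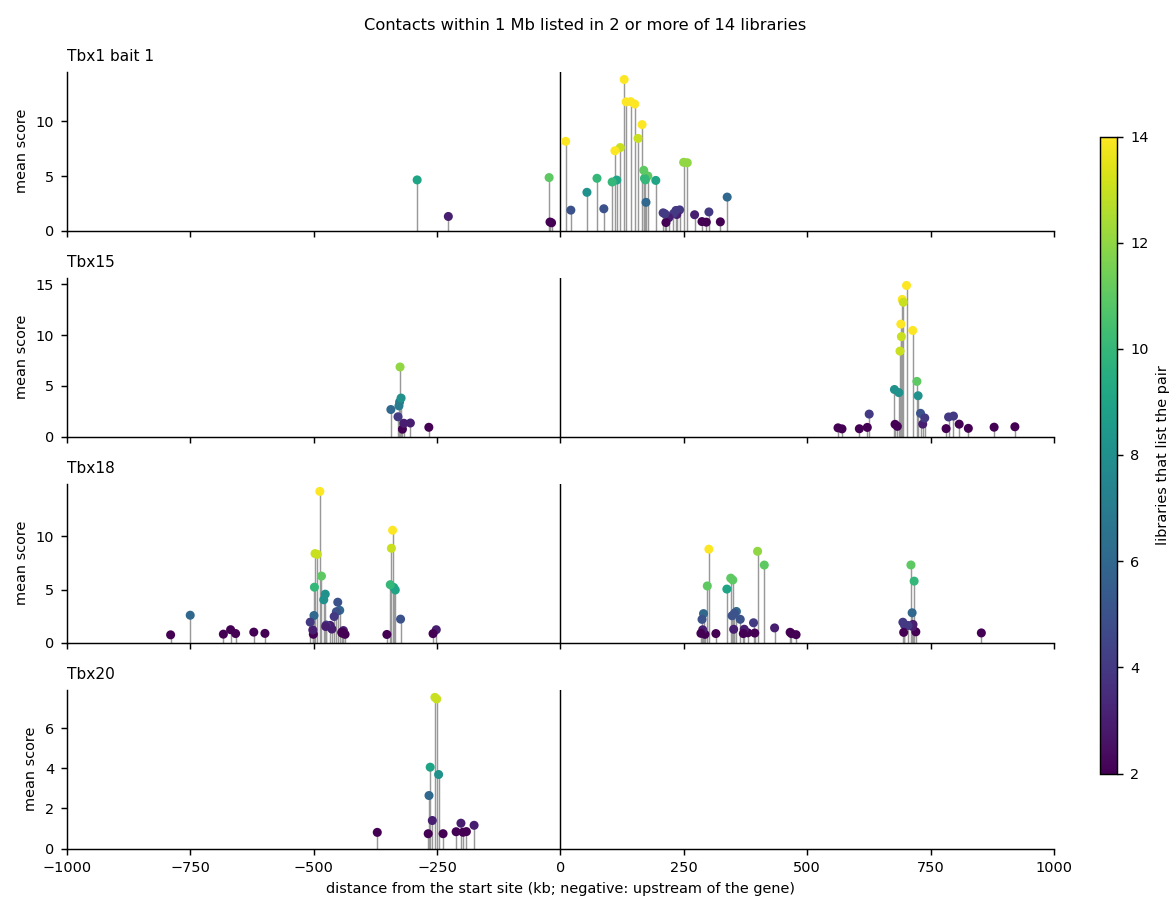
Mean CHiCAGO score over the 14 libraries (vertical axis, score units) of the contacts of a Tbx1, the Tbx15, the Tbx18 and the Tbx20 bait that were listed in 2 or more libraries within 1000 kb of the start site, by distance from it in kb (horizontal axis, negative upstream), with colour giving the number of libraries that list the pair. Tbx1 and Tbx15 were contacted mainly downstream, Tbx20 upstream, and Tbx18 on both sides.

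The comparisons between conditions were tested over all pairs and all baits at once, with limma and an adjusted p of 0.05. Of 913 T-box pairs listed in any library, 284 were listed in at least 4 and were tested, among 161463 pairs in all: 75 of Tbx2, 63 of Tbx18, 40 of Tbx3, 32 and 28 of Tbx1, 22 of Tbx15, 12 of Tbx5, 10 of Tbx20, 4 of Tbx4 and 0 of Tbx22, where the 2 pairs that join T-box baits are counted for both. A pair that passed this filter only through the libraries where it was high had to differ, and an unlisted pair counts as 0, so that crossing the score of 5 makes a large difference. All 10 baits were tested, among 21174, by the log2 of their summed score plus 5, relative to the median bait of the library. Without Md replicate 1 and E12.5 pinna replicate 2 together, the counts of T-box pairs in the 6 comparisons, in the order below, were 0, 0, 17, 10, 9 and 8, and each bait comparison kept its count.

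Between PA2 with the pinna (6 libraries) and FNP, Mx and Md (6 libraries), no T-box pair passed (0 of 284, where 0.0254% of all pairs did), although 56 (19.7%) had an unadjusted p under 0.05 in limma, as did 12.1% of all pairs. With PA2 replicate 1 left out 1 pair passed, and with the other PA2 library left out 2 pairs passed. The median difference of the T-box pairs was -0.26 on the asinh scale, against -0.04 over all pairs. No T-box bait passed either (0.921% of all baits did), and 1 had an unadjusted p under 0.05: Tbx5, lower in PA2 and the pinna by 1.36 on the log2 scale (difference -1.36, SE 0.535, adjusted p = 0.221). The PA2 and E12.5 pinna libraries of Tbx5, at 72.9 to 116, overlapped those of FNP, Mx and Md, at 86.9 to 184.

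Among FNP, Mx, Md and PA2 at E10.5, 6 T-box pairs passed (0.886% of all pairs did): 4 of Tbx3 and 2 of Tbx2. Of the Tbx3 pairs, 3 were in the region 536 to 518 kb upstream described above, listed in both Mx and both Md libraries. The fourth, 260 kb upstream (chr5:119410566-119411230), was listed in FNP at 7.38 and 9.17 and in Mx at 5.33 and 6.53. The Tbx2 pairs lay in Bcas3, at chr11:85601172-85602967 (Mx at 5.57 and 5.24, PA2 at 5.56 and 5.67) and chr11:85673400-85674529 (FNP at 5.24 and 5.42, Mx at 6.99 and 5.09). All 6 were listed in exactly 4 libraries and so passed the filter only through the libraries where they were high. Their adjusted p was 0.0276 to 0.0277, and the count went to 0 without either Mx library, without either knockout library, and without the 2 libraries with many pairs between chromosomes together. No bait of any gene passed this comparison (0%), while 1146 baits had an unadjusted p under 0.05 in limma, and Tbx2 was the 1 T-box bait among them (adjusted p = 0.92).

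In the Hoxa2 knockout against wild-type PA2, 8 T-box pairs passed (2.16% of all pairs did), 7 lower (1.8% of all pairs were lower) and 1 higher (0.362% were higher). The lower ones were 6 of Tbx2 in Bcas3 and the far upstream pair of Tbx3. The Tbx2 pairs scored 5.30 to 10.4 in PA2 and 0 in both knockout libraries. The higher one joined the Tbx5 bait with chr5:119674812-119679983, a fragment just downstream of the Tbx3 bait, which holds a further Tbx3 start site, at 5.89 and 5.77 in the knockout and 0 in PA2 (difference 2.46, SE 0.451, adjusted p = 0.0155). It was also listed at E12.5, at 9.02 and 6.60, and nowhere else. This pair and the Tbx2 pair at chr11:85601172-85602967 were each listed in exactly 4 libraries. They thus passed the filter only through the conditions where they were high. The count rose to 17 without knockout replicate 2, to 14 without E14.5 pinna replicate 1 and to 15 without replicate 2. No T-box bait passed (0.638% of all baits did), and 0 had an unadjusted p under 0.05 in limma, with differences from -0.65 (Tbx20) to 0.79 (Tbx4) on the log2 scale, and the fewer pairs listed in the knockout libraries went with the lower scores of the Tbx2, Tbx3 and Tbx1 regions. Their part in the result was not tested.

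From E10.5 PA2 to the E12.5 pinna, 5 T-box pairs passed (1.35% of all pairs did), 4 lower (0.705% of all pairs) and 1 higher (0.645% of all pairs). The lower ones were Tbx5 with chr5:120421940-120425375 beside Lhx5 (12.2 and 13.7 in PA2, 0 at E12.5; difference -3.25, SE 0.451, adjusted p = 0.0137), the first Tbx1 bait with the Tango2 fragment chr16:18334417-18340370, Tbx4 with the Lhx1 region, and Tbx2 with the Bcas3 fragment chr11:85601172-85602967. The higher one was Tbx5 with the same fragment downstream of the Tbx3 bait (difference 2.74, SE 0.451, adjusted p = 0.0237). This pair, the Tbx4 pair and the Tbx2 pair were each listed in exactly 4 libraries. They thus passed the filter only through the conditions where they were high. From 5, the count went to 2 without PA2 replicate 1 and 3 without replicate 2, to 3 without either knockout library, and to 8 and 9 without Md replicates 1 and 2. No T-box bait passed (0.656% of all baits did), and 0 had an unadjusted p under 0.05 in limma.

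From the E12.5 to the E14.5 pinna, 4 T-box pairs passed (0.901% of all pairs did), 2 lower (0.42% of all pairs) and 2 higher (0.481% of all pairs). Lower were the contact of the Tbx3 and Tbx5 promoters and the Tbx5 contact with that fragment downstream of the Tbx3 bait. Higher were the first Tbx1 bait with the Tango2 fragment chr16:18334417-18340370 and Tbx18 with chr9:88233595-88243181, the latter at 6.08 and 8.85 at E14.5 and 0 at E12.5. This Tbx18 pair and the Tbx5 pair with the fragment downstream of the Tbx3 bait were each listed in exactly 4 libraries. They thus passed the filter only through the conditions where they were high. The count went to 1 without E14.5 replicate 1 and to 10 without replicate 2. As a bait, Tbx5 passed and was lower (0.132% of all baits passed and 0.104% were lower): its summed score of 116 and 72.9 at E12.5 went to 0 and 16.2 at E14.5, a difference of -3.14 on the log2 scale (SE 0.515, adjusted p = 0.00787). Without E12.5 pinna replicate 1 or E14.5 pinna replicate 1 the differences were -2.50 and -2.25 and did not pass.

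Over all 7 conditions, 2 T-box baits passed (5.37% of all baits did). Tbx5 did so with an adjusted p of 0.000263, in 24 of 24 alternatives, and Tbx20 with 0.0433, in 10 of 24, up to 0.299 without E14.5 replicate 1. The summed score of Tbx20 was 83.5 to 192 in the wild-type E10.5 libraries, 84.35 and 65.4 in the knockout, 76.7 and 142 in the E12.5 pinna, and 26.2 and 62.85 in that from E14.5, where both libraries were below all the others.

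The 4 pinna libraries were also set against the 8 wild-type E10.5 libraries, a comparison chosen after the data were seen, as were the bait tests of single contrasts. Its fit counted replicates of a condition as separate libraries. The E10.5 group held FNP, Mx and Md besides PA2, so stage and tissue cannot be told apart in this comparison. Here 16 T-box pairs passed (3.51% of all pairs did), 13 lower in the pinna (2.09% of all pairs were lower) and 3 higher (1.42% were higher). The lower ones were 5 of Tbx5 at and beside Lhx5, 3 of Tbx18 in the Zic1 and Zic4 region, 2 of Tbx2 in Bcas3, and 1 each of Tbx3, Tbx20 and Tbx1. The higher ones were 3 of Tbx18, 2 of them in the region 512 to 444 kb upstream and the other 348 kb downstream. Each was listed in 5 libraries, 4 of them from the pinna, and so passed the filter mainly through the pinna. Likewise, the lower pairs of Tbx3 and Tbx20, and several of those of Tbx5, Tbx18 and Tbx2, were listed in no pinna library. They thus passed the filter only through E10.5 libraries. The count was 6 without E12.5 replicate 2 or E14.5 replicate 1, 9 without E12.5 replicate 1, and 10 without E14.5 replicate 2 or FNP replicate 2.

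The 2 baits that passed this comparison (8.46% of all baits did) were both lower in the pinna (4.94% of all baits were lower). Tbx5 differed by -2.04 on the log2 scale (SE 0.47, adjusted p = 0.00529, in 25 of 25 alternatives) and Tbx20 by -1.03 (SE 0.277, adjusted p = 0.0172, in 21 of 25). For Tbx20 the difference was -0.70 without E14.5 replicate 1 and -0.98 without replicate 2, and neither passed. The other 8 baits had differences from -0.44 (Tbx2) to -0.03 (a Tbx1 bait) and did not pass, which does not show that they were alike in both groups.

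Related genes were described in the same fits from lists chosen with earlier results of these data known. Of 8 other T-box genes (T, Tbx6, Tbx10, Tbx19, Tbx21, Eomes, Tbr1 and Mga), 7 baits were tested and 0 passed any bait comparison. Of 18 baits of 16 T-box partners and targets, 5 passed between pinna and wild-type E10.5 (8.46% of all baits did), 1 higher and 4 lower in the pinna (4.94% of all baits were lower), with a list median of -0.29 on the log2 scale against -0.03 over all baits. The higher one was Fgf10, a growth factor that T-box factors regulate in limb and lung buds: its summed score was 26.9 to 107 in the wild-type E10.5 libraries, 46.3 and 21.7 in the knockout, 89.9 and 178 in the E12.5 pinna, and 234 and 344 in that from E14.5 (difference 1.75, SE 0.316, adjusted p = 0.000538). Gata4, a cardiac partner of Tbx5 and Tbx20, went from 18.3 to 97.2 at E10.5 to 0 and 17.5 in the E12.5 pinna, with 0 in both E14.5 libraries (difference -2.76, SE 0.447, adjusted p = 0.000153).

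The other 3 lower baits were those of Fgf8, Isl1 and Sall4. Fgf8, a target of Tbx1, was lower (difference -0.85, SE 0.209, adjusted p = 0.00876), as were Isl1, a LIM homeobox factor of heart progenitors (difference -0.82, SE 0.228, adjusted p = 0.0215), and Sall4, a zinc-finger partner of Tbx5 (difference -1.83, SE 0.443, adjusted p = 0.0078). In the knockout against PA2, 1 of the 18 passed (0.638% of all baits did), the growth factor gene Bmp2, at 59.9 and 82.9 in PA2 and 5.70 and 23.2 in the knockout (difference -1.93, SE 0.443, adjusted p = 0.0387). From PA2 to the E12.5 pinna, 1 passed (0.656% of all baits did), Sall4, at 33.9 and 43.1 in PA2 and 5.58 and 0 at E12.5 (difference -2.83, SE 0.606, adjusted p = 0.0261). Over the 7 conditions 6 of the 18 passed (5.37% of all baits did), the 5 genes Fgf10, Gata4, Fgf8, Bmp2 and Sall4 and also Bmp4, which was at 11.9 and 12.4 in the knockout and 69.1 and 50.5 in PA2.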

How the data were processed

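Promoter capture Hi-C was done on 14 libraries of sorted mouse neural crest cells, 2 biologically independent libraries for each of 7 conditions. Per the study's methods, the authors cut chromatin with HindIII, mapped the pairs to GRCm38/mm10 and scored them with CHiCAGO, and the deposited value is the CHiCAGO score of each pair of fragments, with only scores of 5 or more listed. Reads were made with bcl2fastq 2.17 per the submitters' processing notes. Read counts were not used here, so depth is unknown.

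Baits were fragments with a GENCODE start site of a member. Pairs listed in at least 4 of 14 libraries were tested as asinh of the score, and baits with a pair in at least 7 libraries as log2 of the summed same-chromosome score plus 5, minus the library's median, with limma 3.58.1 in R 4.3.3 and Benjamini-Hochberg adjustment over all features at 0.05. The first comparison, and that of pinna with wild-type E10.5, were fitted on the 12 wild-type libraries with a mean per group. Replicates of a condition thus counted as separate libraries in them. Those of single conditions were fitted on all 14 with a mean per condition. The strength of each linked pair was the mean score over fragments between both genes or over the partner gene. A pair that joined both baits was counted from each bait. Strengths were compared by a two-sided exact permutation test. Regions joined contacted fragments listed in at least 4 libraries with gaps of up to 25 kb. Tables were made with Python 3.11.15, pandas 2.3.3 and numpy 2.4.6, and the tests were checked on simulated data.

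Pairs named in the text were the highest 5 of a bait by mean score and up to 10 called per comparison by absolute difference, and genes were named where a contacted fragment listed in 2 or more libraries held their start site, apart from items not reported here. Where a comparison called more than 10 pairs, the rest were given as counts or named after their values were seen. The members and lists were chosen with earlier results of these data known. Alternatives changed the score threshold, the cap, the scale, the filters, the normalization and the libraries. Replicate numbers did not pair the libraries: the correlation of replicate differences between conditions was 0.00209 to 0.0745 over 21 pairs of conditions.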

Additional observations from a re-analysis of the deposited data

Results flagged for a closer look

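A single library stood far from the rest of its group in 2 of 22 groups of 6 libraries examined, where chance gives about 1 in 20 for like libraries. These groups mixed conditions, so that rate need not hold. The strength of the first Tbx1 bait (log2 of the summed score plus 5, relative to the library's median bait) was 1.91 in Md replicate 1, against 2.51 to 2.79 in the other 5 FNP, Mx and Md libraries. The strength of the Tbx3 bait on the same scale was 2.22 in E12.5 pinna replicate 2, against 2.96 to 3.30 in the other 5 PA2 and pinna libraries. The summed scores themselves, not set against the median bait, stood less far apart for Tbx3, at 226 against 253 to 395. For the first Tbx1 bait they were 164 against 200 to 243. These are the libraries with 46.5% and 62.7% of their pairs between chromosomes, and the part of that in these values was not tested.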

How the results depend on the processing

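No result that had a direction turned it under any alternative. The comparisons among FNP, Mx, Md and PA2 and over the 7 conditions give no single direction, so none was examined there. Of 962 values of the 44 named pairs and baits under alternatives, 723 were past the threshold and 239 were not. Counts of T-box pairs moved more, and the cause was not tested. They are given here for PA2 and pinna against FNP, Mx and Md (0 pairs as reported), among the 4 wild-type E10.5 populations (6), knockout against PA2 (8), E12.5 pinna against PA2 (5), E14.5 against E12.5 (4) and pinna against wild-type E10.5 (16). With only scores of 10 or more, they were 1, 2, 3, 2 and 1, leaving out the knockout. With pairs listed in at least 2 libraries, they were 2, 16, 13, 8 and 12, leaving out the last. Leaving out both the knockout and the last, they were 1, 0, 2 and 1 with pairs listed in at least 7 libraries, and 1, 0, 1 and 2 with quantile normalization. Scores capped at 20 gave 13 in the knockout, log2 of the score plus 1 gave 1 in the first, and the same number of top pairs per library gave 4 in the knockout and 10 in the last. Without Md replicate 1 and E12.5 pinna replicate 2 together, an alternative chosen after seeing the data, they were 0, 0, 17, 10, 9 and 8. Leaving out each library in turn gave 0 to 2, 0 to 9, 6 to 17, 2 to 9, 1 to 10 and 6 to 16. Over all pairs tested, the 6 counts ranged from 0 to 228 (41 as reported), 1 to 7623 (1430), 865 to 12861 (3493), 350 to 5125 (2181), 299 to 6603 (1454) and 1268 to 6047 (5667).

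With the replicate number as a block, the 6 counts of pairs were 0, 0, 8, 2, 1 and 15, and no count of T-box baits moved. The libraries share only a number, so a call lost under the block is no measure of a weaker effect.

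Over the 7 conditions the count of T-box baits (2) was 1 with no median subtracted and 1 with log2 of the sum plus 1, and 1 to 3 without single libraries. From E12.5 to E14.5 (1) it was 0 with scores of 10 or more and 0 to 1 without single libraries, and for pinna against wild-type E10.5 (2) it was 1 with scores of 10 or more, 1 with no median subtracted, and 1 to 2 without single libraries. All-bait counts in these 3 comparisons ranged from 559 to 1773 (1138 as reported), 11 to 93 (28) and 942 to 2636 (1792), and in the other 4 from 41 to 640 (195), 0 to 5 (0), 48 to 271 (135) and 20 to 608 (139). The linked strength of Tbx3 and Tbx5 differed by 0.252 with the knockout added (exact permutation p = 0.037) and by 0.137 to 0.301 without single libraries, and that of Tbx2 and Tbx4 by 0 throughout. The unknown depth and the listing score of 5 limit all of these values, since a pair just below 5 cannot be told from an absent one.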
